A study of Mus musculus with 6 samples.

Results

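Neurons sense the transmitters glutamate and GABA through receptors assembled from families of subunits, and 41 genes for these subunits were followed here in mouse medulloblastoma, out of 52550 genes measured. Medulloblastoma is a cancer of the cerebellum. The 41 genes were picked by symbol, with earlier results of these data known. They comprise 4 AMPA, 5 kainate and 6 NMDA receptor subunits, the delta receptor gene Grid1, 6 metabotropic glutamate receptors, 10 GABA-A and 2 GABA-B receptor subunits, the glycine receptor beta subunit Glrb, and 6 transmembrane AMPA receptor regulatory proteins (TARPs) of the Cacng family. RNA-seq was available for 3 tumours labelled Eed mutant and 3 labelled wild type. The Eed protein is needed for PRC2, the Polycomb enzyme that silences genes by methylating histone H3. The Eed allele, the driver of the tumours, the strain and the age of the mice are not given in the sources used here, and the labels do not say that the tumours came from separate animals. P-values therefore measure only the spread between these samples.

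AMPA and kainate receptors are glutamate-gated cation channels that carry fast excitation, and NMDA receptors are calcium-permeable channels that need glutamate together with glycine or D-serine. Metabotropic receptors signal through G proteins. GABA-A receptors are chloride channels, and GABA-B receptors act through G proteins. In the cerebellum, granule neurons, the lineage from which Sonic hedgehog medulloblastoma arises, change their subunits as they mature. Grin2b gives way to Grin2c, and Gabra6 and Gabrd appear late. Glia of the cerebellum use some of the same genes, such as Gria1 and Gria4 in Bergmann glia.

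Most subunit genes were lower in the mutant tumours, while the AMPA subunit gene Gria3 was higher. Counts sufficed to test 40 members, of which 30 had a log2 fold change (mutant over wild type) below 0, against 51.4% of all 19145 genes tested, and 10 had one above 0, against 48.6%. The median log2 fold change was -0.34 over the members and -0.01 over all genes tested. Because the members were chosen with earlier results of these data known, the shares of all genes given here are a description. They are no test of the list. edgeR's quasi-likelihood test with Benjamini-Hochberg adjustment over all genes called 0 members and 0% of all genes, with a smallest adjusted p of 0.104 among the members. At an unadjusted p under 0.05, edgeR had 1 member higher and 19 lower, against 9.29% of all genes higher and 8.78% lower. DESeq2 called 1 member higher, Gria3, and 8 lower, against 3.00% and 2.30% of its 17494 genes. The 8 lower members were Gria2, Gria4, Grin2c, Gabra2, Gabra6, Gabrb2, Glrb and Cacng2. Below, rose and fell are used only of genes that passed DESeq2 at an adjusted p of 0.05. edgeR was the main test and DESeq2 an alternative to it, so these words rest on the alternative, and no gene so named passed the main test. The groups did not overlap in CPM, the count scaled to library size and normalization factor, for 1 member that was higher and 18 that were lower, against 13.1% and 11.9% of all genes tested. Gabra5 alone was not tested, since its counts were too low, at 0.115, 0.23 and 0.227 CPM in the mutants and 0.189, 0.189 and 0.228 CPM in wild type. Apart from Cacng2, each DESeq2 call was lost when 1 or more of the libraries was left out in turn. Of the 9, 1 was still called when mutant replicate 1 was left out, 5 when it was mutant replicate 2 and 2 when it was mutant replicate 3. The count was 8 when wild-type replicate 1 was left out, 3 when it was wild-type replicate 2 and 9 when it was wild-type replicate 3. Leaving out wild-type replicate 2 made the log2 fold change smaller by more than 1.5 times in 16 of the 30 members below 0, and leaving out any other library did so in 0 to 3.

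**Figure D1:**
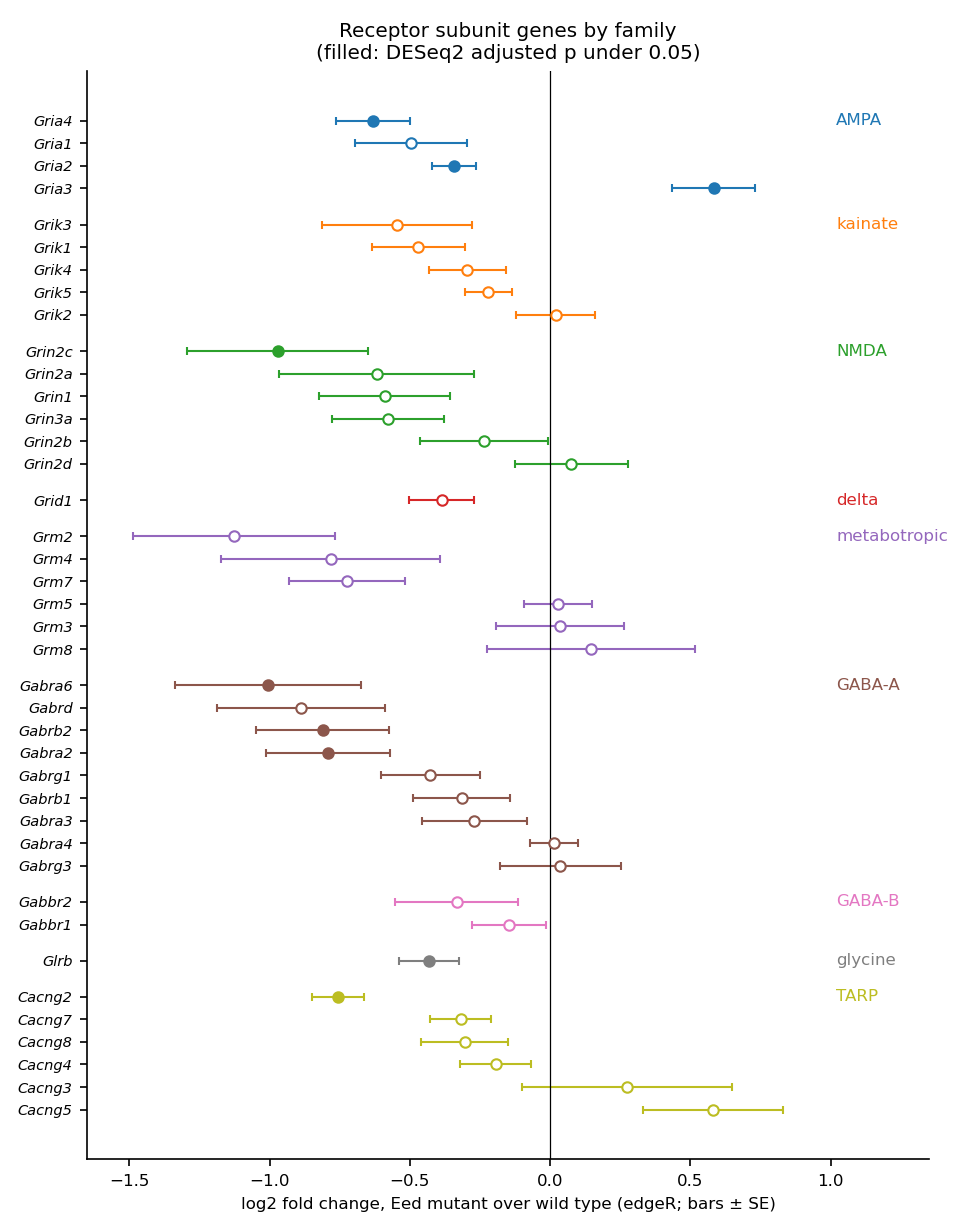
Log2 fold change of the 40 tested members (horizontal axis, Eed mutant over wild type, edgeR, bars ± SE) by receptor family, with filled points for members past a DESeq2 adjusted p of 0.05. Of the points, 30 lie left of 0, and Gria3 is the one filled point to the right.

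The 6 libraries were nearly equal in depth, at 26299365 to 26425111 estimated counts in the mutants and 26186236 to 26330605 in wild type, and the first principal component of all tested genes separated the groups. Wild-type replicate 2 lay farthest out on it, at -49.2 against -26.1 and -9.36 for the other wild-type tumours and 18.5 to 38.4 for the mutants. The labelled tissue showed granule-lineage tumour markers throughout. The transcription factor gene Atoh1, which marks granule progenitors, measured 172, 172 and 137 CPM in the mutants, against 116, 75.3 and 127 CPM in wild type. Zic1, a marker of the whole lineage, measured 1211, 1536 and 1304 CPM in the mutants, against 1471, 1832 and 1435 CPM in wild type. All 12 genes of that marker list were detected, and Ccnd1 alone passed DESeq2, as higher, against 3.00% of all genes. Their summed level was 2479 to 2759 TPM in the mutants and 2589.8 to 2678 TPM in wild type.

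Some markers of other cells differed between the groups as well. Over all genes, DESeq2 called 3.00% higher and 2.30% lower. The groups did not overlap for 13.1% of all genes as higher and 11.9% as lower. All 7 oligodendrocyte markers fell in DESeq2, with a summed level of 224 to 281 TPM in the mutants and 364 to 1052 TPM in wild type. Of the 11 granule neuron markers 2 fell, Cntn1 and Snap25, and 5 had groups that did not overlap, all lower, with a summed level of 867 to 1251 TPM in the mutants and 1187 to 1857 TPM in wild type. Of the 7 Purkinje cell markers 2 fell, Calb1 and Itpr1, with a summed level of 389 to 557 TPM in the mutants and 463 to 1013 TPM in wild type. Wild-type replicate 2 had the highest sum of each of these 3 lists. The summed level of 6 muscle markers was 32.4 to 141 TPM in the mutants and 2.72 to 10.9 TPM in wild type, and 5 of the 6 rose. The inhibitory interneuron sum was 27.1 to 31.6 TPM in the mutants and 31.1 to 56.7 TPM in wild type. The unipolar brush cell sum was 24.1 to 41.9 TPM in the mutants and 34.5 to 81.3 TPM in wild type. Oligodendrocyte precursor markers summed to 240.5 to 273 TPM in the mutants and 261 to 288 TPM in wild type, and astrocyte and Bergmann glia markers to 672 to 892 TPM in the mutants and 727 to 1048 TPM in wild type. Microglia markers summed to 117 to 143 TPM in the mutants and 124 to 193 TPM in wild type, and endothelial markers to 68.2 to 73.9 TPM in the mutants and 52.1 to 71 TPM in wild type. Within these lists Gad1 and the microglial gene Csf1r fell, and the endothelial genes Pecam1 and Kdr rose. The oligodendrocyte and muscle sums did not overlap between the groups, and the sums of the other lists did. No marker was at 0 in all 6 tumours. In these bulk samples fewer cells of a type and less RNA per cell cannot be told apart, and the part of these cells in the receptor values was not tested.

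AMPA receptor subunits changed in opposite directions. Gria2, whose subunit makes AMPA receptors impermeable to calcium once its transcript is edited, fell (ENSMUSG00000033981.14, chromosome 3, 80681450 to 80802835, minus strand, GRCm38). It measured 327, 299.6 and 312 CPM in mutant replicates 1 to 3, against 373, 431 and 388 CPM in wild-type replicates 1 to 3. Every mutant lay below every wild-type tumour. Gria2 had a log2 fold change of -0.34 (SE 0.0775, n = 3 per group, adjusted p = 0.011 in DESeq2 and 0.149 in edgeR). In DESeq2 its adjusted p was 0.0842, 0.0947 and 0.135 with mutant replicate 1, 2 or 3 left out. Gria4, a subunit found in Bergmann glia among other cells, also fell (chromosome 9, 4417896 to 4796234, minus strand). It measured 128, 146 and 154 CPM in mutant replicates 1 to 3, against 243, 240.4 and 179.6 CPM in wild-type replicates 1 to 3, again without overlap. Its log2 fold change came to -0.63 (SE 0.131, adjusted p = 0.00178 in DESeq2 and 0.143 in edgeR). The DESeq2 call was lost in 1 of 6 leave-outs, with an adjusted p of 0.0792 with mutant replicate 1 left out.

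Gria3, an X-linked AMPA subunit gene (chromosome X, 41400854 to 41678601, plus strand), rose. It measured 114, 76.4 and 96.8 CPM in mutant replicates 1 to 3, against 69.5, 56.8 and 65.3 CPM in wild-type replicates 1 to 3, so that the lowest mutant lay above the highest wild-type tumour. This gave a log2 fold change of 0.58 (SE 0.149, adjusted p = 0.0135 in DESeq2 and 0.155 in edgeR). DESeq2 gave adjusted p-values of 0.255 and 0.139 with mutant replicate 1 or 3 left out and 0.0711 with wild-type replicate 2 left out. Gria1 did not pass either test, at 82.9, 65.8 and 96.8 CPM in the mutants, against 138, 123 and 85.9 CPM in wild type, and mutant replicate 3 lay above wild-type replicate 3. Over all transcripts of a gene, Gria2 was the most abundant AMPA gene per length in both groups, at 94.5 ± 4.25 TPM in the mutants and 124 ± 11.8 TPM in wild type (SD, n = 3), where TPM is a length-scaled transcript abundance. Gria4 followed at 52.1 ± 5.01 TPM in the mutants and 82.8 ± 12.9 TPM in wild type, whereas Gria3 came next in the mutants and last in wild type, at 34.7 ± 6.37 TPM in the mutants and 23.4 ± 1.73 TPM in wild type. Gria1 had 24.5 ± 4.77 TPM in the mutants and 36.4 ± 7.75 TPM in wild type. Over protein-coding transcripts alone the order of the means at the top changed in wild type, with 71.6 TPM for Gria2 and 82.8 TPM for Gria4. In the mutants these means were close, at 53.5 TPM for Gria2 and 52.1 TPM for Gria4. The sum over the 4 genes was 210.0, 191 and 216 TPM in the mutants, against 272, 288 and 240.1 TPM in wild type.

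The make-up of the AMPA family differed between the groups. Of the family's TPM, Gria3 made up 19.2, 14.5 and 16.6% in the mutants, against 9.21, 7.48 and 9.79% in wild type. Gria4 made up 22.1, 28.2 and 25.9% in the mutants, against 33.4, 31.1 and 28.3% in wild type. For both genes the groups did not overlap. The share of Gria2 overlapped, at 46.8, 47.1 and 44.1% in the mutants, against 42, 47.6 and 50.4% in wild type.

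**Figure D2:**
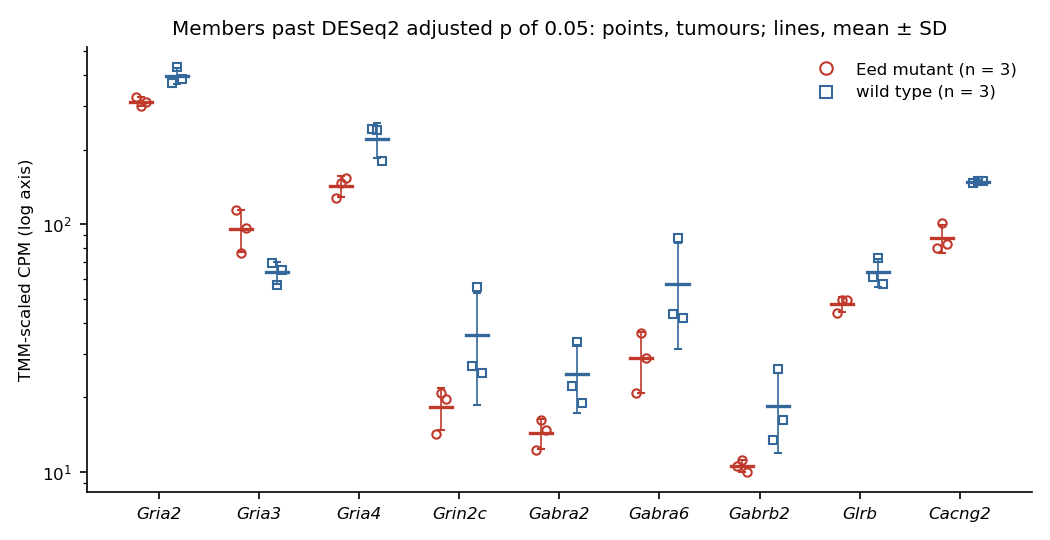
TMM-scaled CPM (vertical log axis) of the 9 members past a DESeq2 adjusted p of 0.05, with a point for each tumour and lines for mean ± SD, n = 3 per group. The mutants lie below wild type for 8 genes and above it for Gria3, and wild-type replicate 2 is the highest wild-type point for 7 of those 8, Gria4 being the exception.

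Each AMPA subunit exists in a flip and a flop form, made by including either of 2 exons of equal length that lie next to each other in the gene and encode part of the ligand-binding domain. The exons of the 3 AMPA genes that passed DESeq2 are shown because their bases define the 2 forms. They were read from GENCODE M21 transcripts on GRCm38, with capitals at the bases where flip and flop of the same gene differ, 36 in Gria2, 32 in Gria3 and 31 in Gria4.
Gria2 flip exon, chr3:80690404-80690518, minus strand: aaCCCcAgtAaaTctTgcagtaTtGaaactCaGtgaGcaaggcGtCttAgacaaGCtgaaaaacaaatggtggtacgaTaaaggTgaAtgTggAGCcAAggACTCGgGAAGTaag
Gria2 flop exon, chr3:80691320-80691434, minus strand: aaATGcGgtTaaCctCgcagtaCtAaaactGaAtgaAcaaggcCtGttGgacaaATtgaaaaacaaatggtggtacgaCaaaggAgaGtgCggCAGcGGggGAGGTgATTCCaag
Gria3 flip exon, chrX:41669501-41669615, plus strand: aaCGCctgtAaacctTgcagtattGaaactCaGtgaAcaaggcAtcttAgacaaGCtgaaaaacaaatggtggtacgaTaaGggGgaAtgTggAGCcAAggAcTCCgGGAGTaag
Gria3 flop exon, chrX:41654810-41654924, plus strand: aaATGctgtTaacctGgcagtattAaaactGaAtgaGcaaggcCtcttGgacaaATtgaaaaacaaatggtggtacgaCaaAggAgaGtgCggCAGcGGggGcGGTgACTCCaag
Gria4 flip exon, chr9:4427030-4427144, minus strand: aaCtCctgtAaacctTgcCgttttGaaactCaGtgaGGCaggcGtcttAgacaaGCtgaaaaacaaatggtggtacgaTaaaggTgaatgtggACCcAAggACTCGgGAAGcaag
Gria4 flop exon, chr9:4432773-4432887, minus strand: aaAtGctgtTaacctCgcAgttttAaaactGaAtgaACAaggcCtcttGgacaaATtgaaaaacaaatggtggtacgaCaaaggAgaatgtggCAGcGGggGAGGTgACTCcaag

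The flip share of the annotated transcripts differed between the genes far more than between the genotypes. Among transcripts with 1 of the 2 exons, flip took 99.2% of Gria3 TPM in mutant replicate 3 and 99.9% in wild-type replicate 3, and no flop TPM was listed in the other 4 tumours. Gria1 was also mainly flip, at 92, 91.5 and 93.6% in the mutants, against 94.4, 93.7 and 91% in wild type. In Gria4 flip took 60.8, 64.3 and 66.2% in the mutants, against 72.5, 64.2 and 61.4% in wild type, and the groups overlapped. Gria2 was mainly flop. Its flip share was 35.5, 34.9 and 34.6% in the mutants, against 36.4, 36.8 and 39.1% in wild type, so every mutant lay below every wild-type tumour, by 2.45 percentage points on average. The exact two-sided permutation p over samples was 0.1 for Gria2, the smallest that 3 against 3 allows, 0.7 for Gria4 and Gria1 and 1 for Gria3, so no difference could pass 0.05 over these 4 comparisons. In Gria2 the flop transcript is 10371 bases long and the flip transcript 4026, so their shares also depend on reads outside the 2 exons. As a share of estimated counts, flip was 18.3 ± 0.25% of Gria2 in the mutants and 19.97 ± 0.996% in wild type (SD, n = 3). The transcripts counted held 54.1% to 59.7% of Gria2 TPM, since another transcript has both exons and others have neither. For Gria3 they held 71.7% to 86.1% of TPM, and a transcript with both exons was again left out. The Gria3 flip transcript is 5192 bases long and the flop transcripts 3081 and 2667, so its share near 100% also depends on the annotation.

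**Figure D3:**
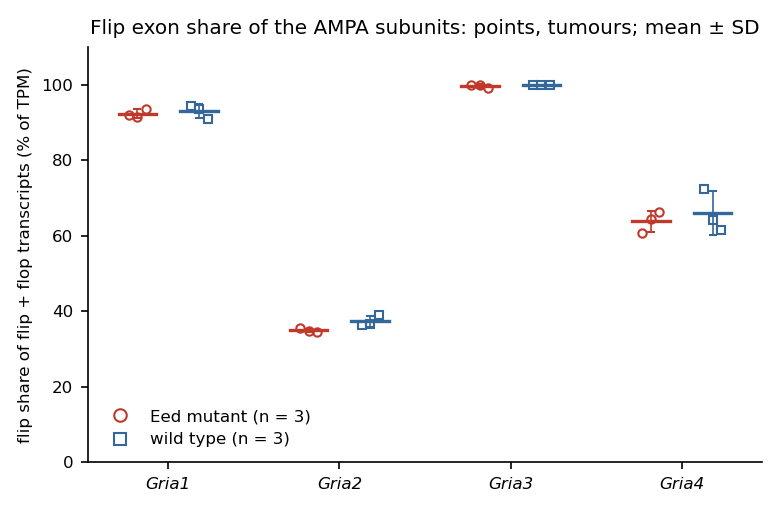
Flip share (vertical axis, percent of the TPM of transcripts with 1 of the 2 exons) of the 4 AMPA subunit genes, with a point for each tumour and lines for mean ± SD, n = 3 per group. Gria3 lies at 99.2% or above, and Gria2 between 34.6% and 39.1%.

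TARPs bring AMPA receptors to the membrane and slow their closing, and Cacng2, which encodes stargazin, had the smallest adjusted p of all members in both tests. Cacng2 is the TARP on which AMPA receptors of cerebellar granule neurons depend in mice (chromosome 15, 77991748 to 78120028, minus strand). It measured 79.8, 101 and 83.1 CPM in mutant replicates 1 to 3, against 146, 149.9 and 149.8 CPM in wild-type replicates 1 to 3, with wild-type tumours close together and the highest mutant well below them. It fell, with a log2 fold change of -0.76 (SE 0.0943, adjusted p = 1.58e-07 in DESeq2 and 0.104 in edgeR). Cacng2 was the one member that DESeq2 called whichever library was left out, with log2 fold changes of -0.87 to -0.69 in edgeR.

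The other TARPs did not pass either test. Cacng7, the most abundant TARP per length at 80.6 ± 6.11 TPM in the mutants and 102 ± 11.9 TPM in wild type (SD, n = 3), measured 89, 102 and 94.7 CPM in the mutants, against 120.1, 134 and 102 CPM in wild type, and wild-type replicate 3 lay within the mutants' range. Cacng4 and Cacng5 are neighbours on chromosome 11 (107732357 to 107794557 and 107874605 to 107915055). Cacng5 measured 61.6, 43.4 and 49.3 CPM in the mutants, against 47.6, 24 and 31.6 CPM in wild type. Its log2 fold change of 0.58 (SE 0.25) was 0.89 without wild-type replicate 1 and 0.38 without wild-type replicate 2. Cacng4 measured 83.2, 90.5 and 86.3 CPM in the mutants, against 109, 109 and 79 CPM in wild type, with a log2 fold change of -0.19 (SE 0.128). Cacng8 measured 4.95, 6.3 and 6.31 CPM in the mutants, against 7.32, 7.84 and 6.54 CPM in wild type, without overlap, a log2 fold change of -0.30 (SE 0.156). Cacng3 ranged over 4.42 to 14 CPM in the mutants and 6.83 to 8.48 CPM in wild type (log2 fold change 0.27, SE 0.374), and the lowest and the highest of the 6 tumours were both mutants. Of the TARP TPM, Cacng2 made up 12.5, 14.7 and 13.3% in the mutants, against 17.8, 18.5 and 21.4% in wild type. Cacng5 made up 15.3, 10.03 and 12.5% in the mutants, against 9.19, 4.75 and 7.17% in wild type. Neither share overlapped between the groups.

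Among the kainate receptor genes none of the 5 passed DESeq2, and the most abundant, Grik2, had a log2 fold change near 0. Grik2, a pore-forming subunit, measured 192, 184 and 169.7 CPM in mutant replicates 1 to 3, against 142, 211 and 185 CPM in wild-type replicates 1 to 3, with a log2 fold change of 0.02 (SE 0.14). Grik5, a partner subunit that needs another kainate subunit to form channels, measured 70.1, 75.7 and 74.9 CPM in the mutants, against 85.6, 94.4 and 77 CPM in wild type. Grik1, another pore-forming subunit, measured 5.3, 7.41 and 6.43 CPM in the mutants, against 7.89, 9.65 and 8.97 CPM in wild type. Grik4, the other partner subunit, measured 7.79, 6.99 and 6.88 CPM in the mutants, against 8.98, 9.77 and 7.83 CPM in wild type. These 3 were lower without overlap, with log2 fold changes of -0.22, -0.47 and -0.30. Grik3 ranged over 10.7 to 18.6 CPM in the mutants and 14.2 to 23.2 CPM in wild type, a log2 fold change of -0.55 (SE 0.268). The kainate sum, 115, 115 and 112 TPM in the mutants, against 103, 130.4 and 118 TPM in wild type, overlapped between the groups.

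In the NMDA family Grin2c alone passed DESeq2. It encodes the GluN2C subunit that mature granule neurons gain, and it measured 14.2, 20.7 and 19.7 CPM in mutant replicates 1 to 3, against 26.6, 55.6 and 25 CPM in wild-type replicates 1 to 3. Every mutant lay below every wild-type tumour, and wild-type replicate 2 was far above the others. It fell, with a log2 fold change of -0.97 (SE 0.323, adjusted p = 0.0308 in DESeq2 and 0.205 in edgeR), which was -0.50 without wild-type replicate 2. Its DESeq2 adjusted p was 0.39, 0.0613 and 0.137 with mutant replicate 1, 2 or 3 left out and 0.147 with wild-type replicate 2 left out. Grin1, the obligatory subunit and the most abundant at 19.7 ± 3.61 TPM in the mutants and 30.6 ± 9.23 TPM in wild type (SD, n = 3), measured 40.6, 58.4 and 53.5 CPM in the mutants, against 58.4, 104 and 66.8 CPM in wild type. Its groups did not overlap, by a narrow margin, and its log2 fold change of -0.59 (SE 0.233) was -0.30 without wild-type replicate 2.

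The other NMDA subunit genes overlapped. Grin2b, the GluN2 subunit of immature neurons, measured 68.8, 92.3 and 80.03 CPM in the mutants, against 65.5, 126 and 92.6 CPM in wild type, a log2 fold change of -0.24 (SE 0.228). Grin2a, which is gained with maturation, ranged over 4.57 to 8.11 CPM in the mutants and 6.64 to 14.9 CPM in wild type (log2 fold change -0.62, and -0.18 without wild-type replicate 2). Grin2d ranged over 5.25 to 5.38 CPM in the mutants and 3.78 to 6.28 CPM in wild type (log2 fold change 0.08). Grin3a, a subunit that lowers calcium entry, ranged over 29.3 to 37.2 CPM in the mutants and 35.2 to 61.3 CPM in wild type (log2 fold change -0.58). Within the 4 GluN2 genes the balance differed, and Grin2c made up 38.5, 42.7 and 43.1% in the mutants, against 55.9, 58.2 and 45.7% in wild type. Grin2b made up 42.3, 41.2 and 39.3% in the mutants, against 30.5, 29.9 and 40.3% in wild type, with wild-type replicate 3 among the mutants. The delta receptor gene Grid1, whose protein binds cerebellins at synapses, measured 14.1, 12.4 and 13.8 CPM in the mutants, against 19.4, 17.8 and 15.6 CPM in wild type, without overlap, and did not pass (log2 fold change -0.39, adjusted p = 0.0829 in DESeq2).

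**Figure D4:**
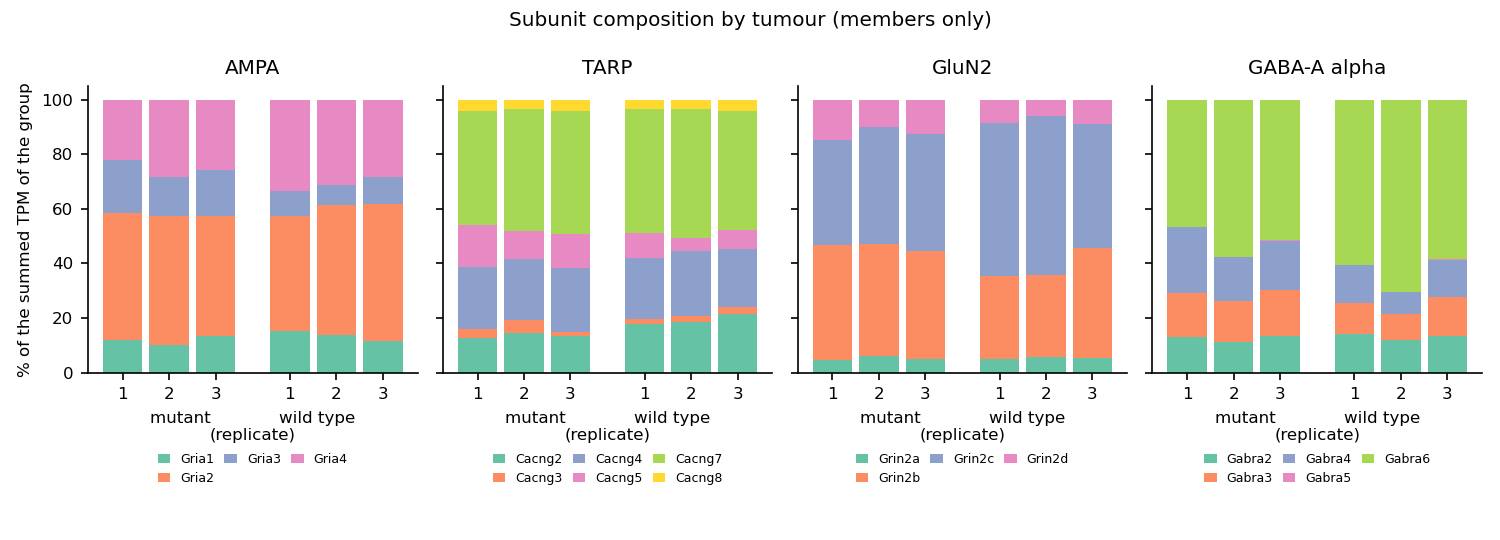
Share of each member in the summed TPM of its group (vertical axis, percent) for AMPA, TARP, GluN2 and GABA-A alpha genes, with a bar for each tumour, mutants left of wild type. Gria3 and Cacng5 take larger shares in every mutant than in any wild-type tumour, and Gria4, Cacng2, Grin2c and Gabra6 smaller ones.

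Of the 6 metabotropic receptor genes none passed DESeq2, and 3 of the 6 log2 fold changes were below 0. Grm2, a receptor of Golgi cells that inhibits adenylyl cyclase, measured 1.38, 2.38 and 1.63 CPM in the mutants, against 2.49, 5.83 and 3.46 CPM in wild type, a log2 fold change of -1.13 (SE 0.36, adjusted p = 0.0584 in DESeq2). Grm7, a presynaptic receptor, measured 2.46, 2.11 and 2.95 CPM in the mutants, against 3.4, 4.85 and 4.18 CPM in wild type, a log2 fold change of -0.72 (SE 0.207, adjusted p = 0.0757 in DESeq2). Both were lower without overlap. Grm4, the presynaptic receptor of granule neuron axons and the most abundant of the family at 13.2 ± 5.73 TPM in the mutants and 23 ± 10.1 TPM in wild type (SD, n = 3), measured 23.9, 56.2 and 34.9 CPM in the mutants, against 48.1, 101 and 48.4 CPM in wild type. Its groups overlapped, and its log2 fold change of -0.78 was -0.33 without wild-type replicate 2. Grm5, which raises intracellular calcium, ranged over 23.4 to 30.5 CPM in the mutants and 23.4 to 27.1 CPM in wild type. Grm3, found on neurons and glia, ranged over 5.26 to 9.26 CPM in the mutants and 5.86 to 7.63 CPM in wild type, and the presynaptic receptor gene Grm8 over 0.461 to 0.87 CPM in the mutants and 0.415 to 0.871 CPM in wild type. The log2 fold changes of Grm5, Grm3 and Grm8 were 0.03, 0.04 and 0.15, each smaller than its SE.

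Of the 9 tested GABA-A subunit genes, Gabra6, Gabra2 and Gabrb2 fell and none rose. Gabra6, the alpha subunit that marks mature cerebellar granule neurons (chromosome 11, 42306437 to 42321072, minus strand), was also the most abundant, at 24.2 ± 7.01 TPM in the mutants and 50.5 ± 23.3 TPM in wild type (SD, n = 3). It measured 20.8, 36.5 and 28.7 CPM in mutant replicates 1 to 3, against 43.2, 87.8 and 41.7 CPM in wild-type replicates 1 to 3. The groups did not overlap, and wild-type replicate 2 stood above the other wild-type tumours. Gabra6 had a log2 fold change of -1.01 (SE 0.33, adjusted p = 0.0244 in DESeq2 and 0.202 in edgeR), and of -0.57 without wild-type replicate 2. Its DESeq2 adjusted p was 0.354 and 0.159 with mutant replicate 1 or 3 left out and 0.173 with wild-type replicate 2 left out.

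Gabrb2, the beta subunit that often joins Gabra6, measured 10.5, 11.1 and 9.94 CPM in the mutants, against 13.4, 25.9 and 16.2 CPM in wild type, a log2 fold change of -0.81 (SE 0.238, adjusted p = 0.0254 in DESeq2). Gabra2, an alpha subunit of the developing cerebellum, measured 12.2, 16.1 and 14.7 CPM in the mutants, against 22.1, 33.4 and 19 CPM in wild type, a log2 fold change of -0.79 (SE 0.221, adjusted p = 0.0183 in DESeq2). In both, every mutant lay below every wild-type tumour. Without wild-type replicate 2 their log2 fold changes were -0.49 and -0.52. The DESeq2 adjusted p of Gabrb2 was 0.255, 0.0807 and 0.2003 with mutant replicate 1, 2 or 3 left out and 0.0885 with wild-type replicate 2 left out. That of Gabra2 was 0.299 and 0.126 with mutant replicate 1 or 3 left out and 0.0847 with wild-type replicate 2 left out. Gabrd, the delta subunit that joins Gabra6 outside the synapse, measured 6.14, 9.41 and 7.75 CPM in the mutants, against 9.7, 20.9 and 12.5 CPM in wild type, a log2 fold change of -0.89 (SE 0.301), and -0.52 without wild-type replicate 2. Its DESeq2 adjusted p lay just above the threshold, and its groups did not overlap.

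The remaining GABA-A genes passed neither test. Gabrg1, a gamma subunit found in Bergmann glia, measured 10.9, 8.18 and 11.5 CPM in the mutants, against 16.3, 12.2 and 12.7 CPM in wild type, without overlap, a log2 fold change of -0.43 (SE 0.177). Gabra4 measured 19.2, 18.6 and 17.6 CPM in the mutants, against 18.2, 18.9 and 17.6 CPM in wild type, with groups that overlapped closely (log2 fold change 0.01, SE 0.085). Gabrb1 ranged over 20.4 to 29.9 CPM in the mutants and 25.5 to 34.9 CPM in wild type (log2 fold change -0.32). Gabra3 ranged over 11 to 15.9 CPM in the mutants and 13.3 to 19.4 CPM in wild type (log2 fold change -0.27), and Gabrg3 over 2.87 to 3.69 CPM in the mutants and 2.59 to 4.08 CPM in wild type (log2 fold change 0.04). Of the TPM of the 5 alpha genes followed, Gabra6 made up 46.6, 57.5 and 51.6% in the mutants, against 60.4, 70.3 and 58.5% in wild type. Gabra4 made up 24.1, 15.8 and 17.6% in the mutants, against 13.7, 8.01 and 13.3% in wild type, again without overlap, but in the other direction.

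Several GABA-A genes lie side by side. Gabra6 and Gabrb2 (42419757 to 42629028) are close to each other on chromosome 11, and both fell. The cluster on chromosome 5, Gabrg1, Gabra2, Gabra4 and Gabrb1 (70751047 to 72149037), was less uniform, with log2 fold changes of -0.43, -0.79, 0.01 and -0.32. The starts of Gabra4 and Gabrb1 overlap on opposite strands, and reads there cannot be told apart without strand.

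The metabotropic GABA-B receptor genes overlapped between the groups. Gabbr1, which binds GABA and was the most abundant of all 41 members per length at 161 ± 16.8 TPM in the mutants and 189 ± 17.6 TPM in wild type (SD, n = 3), measured 213, 197 and 252 CPM in the mutants, against 224, 287 and 222 CPM in wild type, a log2 fold change of -0.15 (SE 0.132). Gabbr2, which couples to the G protein, measured 45.9, 48.6 and 63.6 CPM in the mutants, against 52.2, 89.1 and 57.7 CPM in wild type, a log2 fold change of -0.33 (SE 0.219) that was -0.06 without wild-type replicate 2. Glrb, which anchors glycine receptors at inhibitory synapses through gephyrin, fell (chromosome 3, 80843599 to 80913660, a neighbour of Gria2). It measured 43.6, 49.3 and 49.2 CPM in mutant replicates 1 to 3, against 61.1, 73.1 and 57.4 CPM in wild-type replicates 1 to 3, with no overlap and a log2 fold change of -0.43 (SE 0.106, adjusted p = 0.0266 in DESeq2 and 0.152 in edgeR). Its DESeq2 adjusted p was 0.366, 0.0741 and 0.135 with mutant replicate 1, 2 or 3 left out and 0.0514 and 0.0828 with wild-type replicate 1 or 2 left out.

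Summed over each family, expression per length (TPM) was highest for AMPA, TARP, GABA-B and kainate genes and lower for GABA-A, NMDA and metabotropic genes. The GABA-A sum was 56.8, 76.7 and 70.1 TPM in the mutants, against 92.7, 156 and 92.4 TPM in wild type. The NMDA sum was 34.3, 44.4 and 45.1 TPM in the mutants, against 53.9, 83.5 and 53.2 TPM in wild type. The TARP sum was 179, 195 and 178 TPM in the mutants, against 239, 234 and 204 TPM in wild type. These 3 sums and the AMPA sum did not overlap between the groups, with the mutants lower. The metabotropic sum was 19.9, 32.9 and 28.6 TPM in the mutants, against 31.7, 54.4 and 33.1 TPM in wild type, and the GABA-B sum 174, 157 and 195 TPM in the mutants, against 191, 234 and 197 TPM in wild type. Both overlapped. Wild-type replicate 2 held the highest sum of every family but the TARPs and Grid1, which wild-type replicate 1 led.

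**Figure D5:**
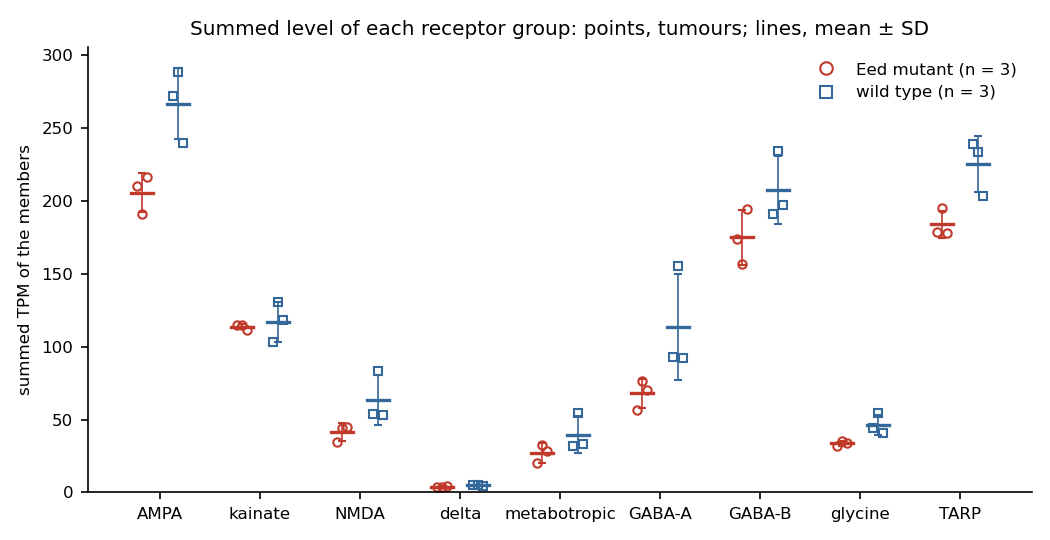
Summed TPM (vertical axis) of the members of each receptor group, with a point for each tumour and lines for mean ± SD, n = 3 per group. The mutants lie below wild type without overlap for AMPA, NMDA, delta, GABA-A, glycine and TARP genes, and the groups overlap for kainate, metabotropic and GABA-B genes.

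The called members were also compared within the code that each deposited file carries in its name, whose meaning was not given. Mutant replicates 1 and 2 share a code with wild-type replicate 2, and mutant replicate 3 shares one with wild-type replicate 3. Wild-type replicate 1 has a code that no mutant carries, so it is left out of this comparison. Within the 2 shared codes, each of the 9 called members differed in the same direction as in the whole set. That direction was fixed in advance, because the groups of all 9 did not overlap, so it does not test the code. The log2 ratios of mean CPM, mutant over wild type, were -0.73 and -0.85 for Cacng2, -0.81 and -0.22 for Gria4, -0.46 and -0.31 for Gria2 and 0.74 and 0.57 for Gria3. They were -1.62 and -0.54 for Gabra6, -1.67 and -0.34 for Grin2c, -1.26 and -0.70 for Gabrb2, -1.24 and -0.37 for Gabra2 and -0.65 and -0.22 for Glrb. With at most 3 libraries per code these are values with no test.

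Other genes of glutamatergic and GABAergic synapses were read out from the same fits. Of 35 auxiliary and scaffold genes 34 were tested, with a median log2 fold change of -0.12, and 2 rose while none fell, against 3.00% and 2.30% of all genes in DESeq2. Of the 34, 23 had a log2 fold change below 0. The groups did not overlap for 3 genes that were higher and 6 that were lower, against 13.1% and 11.9% of all genes tested. The 6 were Shisa6, Dlg3, Pick1, Nsf, Nlgn1 and Kctd12, with log2 fold changes of -0.44 to -0.18. Nptx1, a secreted pentraxin that gathers AMPA receptors at synapses, measured 277, 189.7 and 262 CPM in the mutants, against 101, 93.7 and 145 CPM in wild type, a log2 fold change of 1.10 (SE 0.201, adjusted p = 1.37e-05 in DESeq2 and 0.13 in edgeR). Gsg1l, an auxiliary subunit that dampens AMPA receptor currents, measured 306, 261 and 282 CPM in the mutants, against 211, 127 and 214 CPM in wild type, a log2 fold change of 0.62 (SE 0.194, adjusted p = 0.036 in DESeq2). Gsg1l and Gria3 were higher in every mutant, whereas Cacng2, Gria2 and Gria4 were lower in every mutant.

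Of 18 genes for synthesis and transport of the transmitters, 1 passed DESeq2, where 3.00% of all genes rose and 2.30% fell. The gene was Gad1, which makes GABA, and it fell, at 31.8, 27.4 and 32.3 CPM in the mutants, against 38.1, 60.3 and 49.8 CPM in wild type (log2 fold change -0.70, adjusted p = 0.00584 in DESeq2). The vesicular glutamate transporter gene of mature granule neurons, Slc17a7, measured 21, 42.4 and 27.9 CPM in the mutants, against 31.7, 73.3 and 32.7 CPM in wild type, and did not pass (log2 fold change -0.59, and -0.91 to -0.08 when each library was left out in turn). The astrocytic glutamate transporter gene Slc1a2 overlapped between the groups, at a log2 fold change of 0.01 (SE 0.0887). The median over the 18 genes was -0.26.

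Promoters were also compared by CpG content, the sequence feature that marks typical PRC2 targets in mammals. RefSeq windows of 300 bases on GRCm38.p6, from 250 bases before to 50 after the annotated start, were matched by symbol for 30 of the 41 members, 38 windows in all. A ratio of observed to expected CpG of at least 0.6 was found in 18 of these windows (47.4%), against 35.8% of all 32851 windows. Of the 8 members that fell, 7 had a window at or above this ratio, among them Gria2 with 26 CpGs (ratio 0.80), and for Gabrb2 this was 1 of its 3 windows. Gabra6 was the exception, with 2 CpGs (ratio 0.155). This count is of genes with any window at the ratio, whereas the shares above are of windows, so they are not like for like. Among members that did not fall, some also had such a window, as Grik4 and Grin1 did, and others, as Cacng3 and Grik5, had none. A link between the ratio and the fall was not tested. Gria3, the member that rose, had no matched window. The window of Gria2 also held the only match, among the 38 windows of the 30 matched members, to AGCACC, any 2 bases and GGACAGC, searched on both strands. These letters belong to the element bound by REST, a repressor of neuronal genes. Members with no matched window were not searched. All windows held 10 matches, or 0.0304%. The windows of Gria2 and Gabra6 are printed to show the match and the exception in CpG content, with the match, on the reverse strand, in capitals.
Gria2, chr3:80802786-80803085, minus strand: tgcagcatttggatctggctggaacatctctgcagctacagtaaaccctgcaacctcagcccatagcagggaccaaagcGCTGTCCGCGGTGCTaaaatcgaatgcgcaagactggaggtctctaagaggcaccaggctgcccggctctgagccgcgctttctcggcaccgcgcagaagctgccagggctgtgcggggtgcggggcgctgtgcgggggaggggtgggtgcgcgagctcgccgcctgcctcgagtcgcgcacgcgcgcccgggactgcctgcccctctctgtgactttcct
Gabra6, chr11:42321023-42321322, minus strand: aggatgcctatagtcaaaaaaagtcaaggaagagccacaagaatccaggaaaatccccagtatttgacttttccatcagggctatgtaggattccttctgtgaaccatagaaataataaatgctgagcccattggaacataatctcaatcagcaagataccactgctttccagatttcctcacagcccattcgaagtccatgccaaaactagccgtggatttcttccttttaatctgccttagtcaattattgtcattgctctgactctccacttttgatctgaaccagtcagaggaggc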

How the data were processed

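Each tumour has its own table of kallisto output, with the authors' estimated counts and TPM for each transcript, per the file headers. The submitters' processing notes name kallisto 0.43.1, GRCm38 and mm10; strand, annotation release and RNA selection are not given in the sources used here. From the deposited expected (estimated) counts and TPM, 131100 transcripts were summed to 52550 genes, and counts were rounded. TPM values made by the authors describe levels between genes.

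Groups were compared with edgeR 4.0.16 (TMM, default filter, quasi-likelihood test) in R 4.3.3, 3 mutant against 3 wild type, over all 19145 genes kept, with Benjamini-Hochberg adjustment at 0.05; DESeq2 1.42.0 and limma 3.58.1 gave alternatives. The fits were tested on simulated counts. The members, lists and tests were chosen with earlier results of these data known. All members are accounted for; sample values are given for called or non-overlapping members of at least 1 CPM and the most abundant of each family, and others named were chosen after their values were seen. Of other pathway genes, values were to be given for DESeq2 calls and for non-overlapping genes of at least 1 on the log2 scale. Further receptor subunit genes outside the 41 are not reported here. Fold changes are mutant over wild type. Each SE beside a log2 fold change is the absolute edgeR log2 fold change divided by the square root of its F statistic. It is not the SE of the DESeq2 fit. A library of this depth puts 3 counts at 0.114 to 0.115 CPM, and counts carry counting error. GENCODE M21 gave coordinates and exons. Flip and flop exons were named from their translation. Same-numbered replicates did not deviate together in every pair, so numbers were not used as pairs.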

Additional observations from a re-analysis of the deposited data

How the results depend on the processing

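edgeR's quasi-likelihood test called 0 genes at an adjusted p of 0.05, while DESeq2 called 524 higher and 403 lower, among them 1 member higher and 8 lower. limma-trend on log2(TPM + 1) called 6 genes higher and 6 lower, and edgeR with no filter on low counts called 3 higher. Neither called a member. With RLE size factors, a stricter filter on low counts or the file code as a term, edgeR called 0 genes. Leaving out each library in turn, edgeR called 0 to 6 genes higher and 0 to 3 lower, and 0 to 1 members lower, Cacng2 without mutant replicate 2. With the replicate number as a block, edgeR called 189 genes higher and 84 lower, with 1 member higher, Gria3, and 3 lower, Grm4, Gabra6 and Cacng2. The labels do not say what the numbers share, and the deviations of same-numbered libraries correlated at 0.227, 0.0624 and -0.135 for numbers 1, 2 and 3, so the block has no basis in the design. Over 13 settings the fold changes of 31 members never changed sign and those of 9 did. With the file code as a term the log2 fold change was -0.15 for Grik2, -0.11 for Grin2d, -0.0157 for Grm5, -0.0831 for Grm8, -0.0027 for Gabra4 and -0.0294 for Cacng3. In limma-trend it was -0.0175 for Grm3. Without 1 library it ranged from -0.12 to 0.15 for Grik2, -0.44 to 0.0239 for Grin2b, -0.0938 to 0.27 for Grin2d, -0.19 to 0.22 for Grm3, -0.0919 to 0.10 for Grm5, -0.0902 to 0.42 for Grm8, -0.0132 to 0.047 for Gabra4, -0.11 to 0.22 for Gabrg3 and -0.19 to 0.60 for Cacng3. The cause of these changes was not tested. DESeq2 without each library, TPM over coding transcripts and flip shares of counts were chosen after seeing the data.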

Other observations

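A large part of Gria2 RNA was assigned to transcripts that the annotation does not call protein-coding, which are 1 transcript with both the flip and the flop exon and several that keep an intron. Of Gria2 TPM, protein-coding transcripts held 54.1, 58.7 and 57.1% in the mutants, against 59.7, 55.5 and 58.3% in wild type. The log2 ratio of mean TPM, mutant over wild type, was -0.42 over coding transcripts and -0.39 over all of them. For Gria3 the 2 ratios were 0.47 and 0.57, and for Gria4 both were -0.67. Grm7 differed more in TPM than in counts, with a log2 ratio of mean TPM of -1.26 beside a log2 fold change in counts of -0.72.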
